A study of Sus scrofa with 35 samples.

Results

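The DNAJ proteins, also called HSP40 proteins or J proteins, were followed at the mRNA level in the blood of pigs kept in thermoneutral (TN) or heat stress (HS) conditions. Members were chosen by name: every array probe that was not a control and whose gene name began with DNAJ. This gave 67 probes for 33 gene names among 60305 distinct probes. The log2 table of the authors held 39072 probes, and 61 of the DNAJ probes, for 28 genes, were in it. Subfamily DNAJA had 6 probes for 3 genes, DNAJB had 20 probes for 9 genes and DNAJC had 35 probes for 16 genes.

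A J protein carries a J domain, with which it binds a chaperone of the HSP70 family and makes it hydrolyse ATP, so that the HSP70 closes on an unfolded protein. Members of DNAJA hold a zinc finger beside the J domain, members of DNAJB lack the zinc finger but keep a glycine-rich stretch, and members of DNAJC share the J domain only and work at particular places in the cell, such as the endoplasmic reticulum (ER), mitochondria, endosomes, the spliceosome and ribosomes. DNAJB1 is the member best known for being induced by heat in mammalian cells.

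Blood was taken from 35 castrated male pigs, and the RNA of each was hybridised to its own one-colour array with probes of 60 bases. The pigs were Creole (CR), Large White (LW) or F1, the cross of these breeds, and came from TN at 24 °C or from a 5-d exposure to HS. The sample titles give 30 °C for HS and the protocol gives 32 °C, and an exposure shorter by 1 day also occurs in the methods. There were 5 CR pigs in TN and 6 pigs in each of the other 5 groups, all separate animals, moved to a climatic room at 11 weeks of age with free access to feed. According to the methods, TN pigs were slaughtered before the temperature rose, and pigs shared pens and litters within a breed. Pen, litter and day of slaughter are not in the labels, so each pig was treated as independent and date and climate cannot be told apart. The p-values here do not allow for pigs that shared a pen, litter or day, and may be too small, for the DNAJ probes and for all probes alike.

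The share of probes well above background ranged from 55.2% to 68.0% per array. The 75th percentile of the processed intensity was 150 ± 28.3 (SD, n = 6) in F1 pigs in TN and between 202 and 238 as the mean of each other group. Blood was checked by cell type markers. Of 30 erythroid genes, 21 were in the table, and the mean log2 value of this list was 10.60 ± 0.63 in F1 pigs in TN and 9.58 ± 0.58 in F1 pigs in HS (SD, n = 6 each). The summed erythroid level, in linear intensity, ranged from 252591 to 524587 in F1 TN, from 145097 to 378860 in F1 HS, from 259693 to 359678 in CR TN, from 193930 to 408958 in CR HS, from 302898 to 504403 in LW TN and from 312444 to 442920 in LW HS. In HS, 29 of 47 erythroid probes fell and 1 rose, with a median log2 change of -0.74. All 5 called B cell probes of 8 and all 10 called T cell probes of 27 rose, as did 4 of 18 monocyte probes. In contrast, 1 of 18 neutrophil probes and 4 of 11 cytotoxic cell probes fell, and 0 of 23 platelet probes passed in limma (3 unadjusted). The shares called were 63.8% for erythroid, 62.5% for B cell, 37.0% for T cell, 36.4% for cytotoxic cell, 22.2% for monocyte and 5.56% for neutrophil probes. Of all probes 34.8% passed, 20.1% up and 14.7% down. The T cell and cytotoxic cell shares lay near the 34.8% for both directions. Each of these lists was called in 1 direction only, and lay above the share of all probes in that direction. The part of these leukocyte lists in the results below was not tested. Fewer cells of a type and less RNA per cell cannot be told apart in whole blood.

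A few probe sequences show what the DNAJ probes read. All are printed 5′ to 3′ from the scanner files, which name no genome build. In the first one, of the cytosolic co-chaperone DNAJA2, the capitals mark a stretch that spells 1 CXXCXGXG repeat, the unit of the zinc finger that sets DNAJA apart. Both strands of all probes were searched for this repeat, and 24 of 60305 probes (0.0398%) held it, of which 1 was a DNAJ probe.
DNAJA2 A_72_P205852: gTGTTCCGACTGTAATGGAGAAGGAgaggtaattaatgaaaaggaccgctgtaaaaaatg
The next ones are the DNAJC3 probe with the smallest p of the family, a further DNAJC3 probe, a DNAJC11 probe and the DNAJC14 probes that rose. No stretch is marked in them.
DNAJC3 O9613: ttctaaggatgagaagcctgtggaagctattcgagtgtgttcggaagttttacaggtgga
DNAJC3 A_72_P539958: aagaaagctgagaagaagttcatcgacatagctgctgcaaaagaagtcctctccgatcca
DNAJC11 O9327: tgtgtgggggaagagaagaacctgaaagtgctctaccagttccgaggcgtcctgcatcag
DNAJC14 A_72_P632896: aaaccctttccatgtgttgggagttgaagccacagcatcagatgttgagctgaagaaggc
DNAJC14 A_72_P010481: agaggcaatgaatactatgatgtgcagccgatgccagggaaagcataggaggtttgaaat
The last ones, of DNAJC19, overlap each other, with the 47 bases common to all 3 in capitals, so their values are not separate readings of the gene.
DNAJC19 A_72_P796439: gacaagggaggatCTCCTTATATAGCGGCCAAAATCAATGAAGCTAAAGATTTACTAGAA
DNAJC19 A_72_P731313: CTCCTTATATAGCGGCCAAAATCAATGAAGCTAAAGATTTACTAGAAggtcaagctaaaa
DNAJC19 A_72_P729858: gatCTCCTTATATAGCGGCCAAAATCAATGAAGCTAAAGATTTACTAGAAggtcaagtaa

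In HS pigs of the 3 breeds together, the members that rose came from all 3 subfamilies and from several compartments of the cell, and each change was small. The lead probes of 14 genes changed by 0.23 to 0.46 on the log2 scale, which is 17.0% to 37.8%. DNAJC7, which links HSP70 with HSP90, had the largest rise, and DNAJC3, an ER protein that restrains the kinase PERK, had the smallest p. The probe with the largest fall, -0.49, belonged to DNAJC14, other probes of which rose.

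With breed as a covariate, 24 of 61 DNAJ probes passed an adjusted p of 0.05 (limma, Benjamini-Hochberg adjustment over 39072 probes), of which 21 rose and 3 fell. Of all probes 34.8% passed, 20.1% up and 14.7% down, so that the share of 39.3% for the DNAJ probes lay close to it and the number of calls is not a result about the family. The median log2 change was 0.14 over the DNAJ probes and 0.06 over all probes, and the change lay above 0 in 41 DNAJ probes (67.2%) and in 59.8% of all probes. In DNAJA 2 of 6 probes passed, both up. In DNAJB 5 of 20 passed, 4 up and 1 down. In DNAJC 17 of 35 passed, 15 up and 2 down. With the erythroid mean as a covariate, 0 DNAJ probes passed in limma (19 at an unadjusted p of 0.05), and 2 probes of the whole table did. Without the F1 pigs, 0 DNAJ probes passed (13 unadjusted), and 0 of the whole table did.

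**Figure D1:**
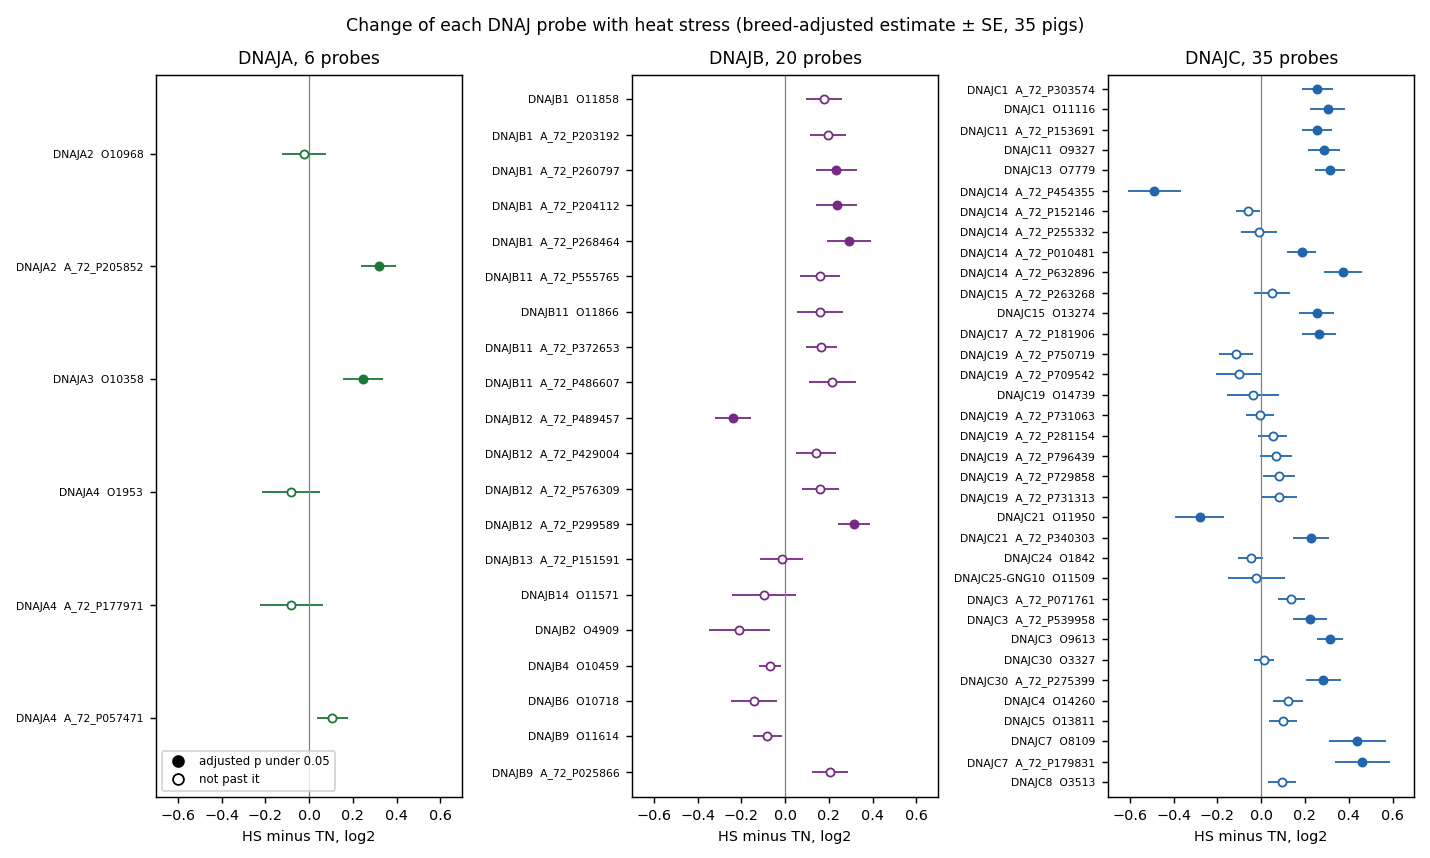
Log2 change in HS minus TN (x axis, breed-adjusted limma estimate with SE as bars, 35 pigs) of each of the 61 DNAJ probes (y axis, gene and probe), by subfamily. Filled points passed an adjusted p of 0.05: 21 lie right of 0, and 3, of DNAJB12, DNAJC14 and DNAJC21, lie left of it.

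When the probes of each gene were averaged, 10 of 28 DNAJ genes passed and all 10 rose, against 40.8% of 8760 genes, 24.5% up and 16.4% down. These were DNAJA2, DNAJA3, DNAJB1, DNAJC1, DNAJC3, DNAJC7, DNAJC11, DNAJC13, DNAJC17 and DNAJC30. DNAJB12, DNAJC14, DNAJC15 and DNAJC21 had called probes but did not pass as averages. In 7 of 15 genes with several probes, the probes differed in sign.

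The zinc-finger subfamily DNAJA was read by 3 genes. DNAJA2, a cytosolic partner of HSP70, read 6.98, 7.06, 7.29, 6.88 and 7.20 in the 5 CR pigs in TN on its lead probe A_72_P205852. In CR HS it ranged from 6.97 to 7.52 with a median of 7.34, in F1 TN from 6.94 to 7.27 (7.05) and in F1 HS from 7.16 to 8.06 (7.45). In LW TN it ranged from 6.80 to 7.55 (7.27) and in LW HS from 7.20 to 7.86 (7.48). The groups overlapped in each breed, and 17 of 18 HS pigs lay above the TN mean of their own breed. The log2 change was 0.32 ± 0.08 (SE, adjusted p = 0.00369). The other DNAJA2 probe, O10968, changed by -0.02 ± 0.10 (adjusted p = 0.873). The difference between these probes was not tested.

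DNAJA3, the mitochondrial member of DNAJA, had 1 probe, which was also the brightest of the subfamily at a mean log2 value of 9.98. Its log2 change was 0.25 ± 0.09 (adjusted p = 0.0365), with 11 of 18 HS pigs above the TN mean of their breed, and the call was lost without any 1 of 10 of the 35 pigs. In F1 it ranged from 9.31 to 9.88 in TN and from 9.60 to 10.43 in HS, whereas the LW means were 9.99 in TN and 9.97 in HS. DNAJA4 had 3 probes, and no probe passed. Its dim probe A_72_P057471, at a mean of 5.24 and above background on 15 of 35 arrays, had the largest change of a DNAJA gene not called, 0.11 ± 0.07 (adjusted p = 0.236). The remaining pair of DNAJA4 probes had the same 60 bases and changed by -0.08 each, with an SD of 0.15 for their difference in each pig.

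In DNAJB, the heat-inducible DNAJB1 was read by 5 probes, all of which had changes above 0, from 0.18 to 0.29, and 3 of which passed. On its lead probe A_72_P268464 the F1 pigs ranged from 6.85 to 7.88 (median 7.17) in TN and from 7.40 to 8.26 (7.81) in HS. The CR pigs ranged from 7.19 to 7.85 in TN and from 6.98 to 7.84 in HS, and the LW pigs from 7.20 to 7.52 in TN and from 7.21 to 7.77 in HS. The groups overlapped in every breed, and 15 of 18 HS pigs lay above the TN mean of their breed. The log2 change was 0.29 ± 0.10 (adjusted p = 0.0239), a rise of 22.5%. This probe shares 25 bases with A_72_P260797, another of the 5, so these 2 probes are not separate readings.

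DNAJB12 sits in the ER membrane with its J domain in the cytosol. Its lead probe A_72_P299589 read 9.59, 9.51, 9.70, 9.21 and 9.61 in CR TN. It ranged from 9.36 to 10.08 (median 9.72) in CR HS, from 9.21 to 9.90 (9.43) in F1 TN and from 9.67 to 10.17 (9.89) in F1 HS. The range was 9.34 to 9.83 (9.55) in LW TN and 9.71 to 10.05 (9.87) in LW HS. HS and TN pigs overlapped in each breed, and 16 of 18 HS pigs were above the TN mean of their breed. The log2 change was 0.31 ± 0.07 (adjusted p = 0.00247). The files place this probe at base 1432 of a transcript and A_72_P489457 at base 1519 of the same one. The latter fell by 0.24 on the log2 scale (SE 0.08, adjusted p = 0.0224), with 14 of 18 HS pigs not above the TN mean of their breed. The remaining DNAJB12 probes did not pass. A_72_P429004 changed by 0.14 ± 0.09 (adjusted p = 0.235) and A_72_P576309 by 0.16 ± 0.08 (adjusted p = 0.133).

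DNAJB11 and DNAJB9 work in the ER lumen with the HSP70 protein BiP, and neither passed over the 3 breeds. DNAJB11 had 4 probes with changes of 0.16 to 0.21 (adjusted p from 0.0675 to 0.240), and 2 of these probes have the same 60 bases. By the probe of smallest p of each gene, DNAJB9 had the largest rise of a DNAJB gene not called. It was 0.20 ± 0.08 (adjusted p = 0.0550) on probe A_72_P025866, and the other DNAJB9 probe changed by -0.08 ± 0.07. The DNAJB11 probe A_72_P486607, which is not that of smallest p, rose by 0.21. DNAJB2, a J protein that binds ubiquitinated proteins, had the brightest probe of the family at 11.91 and the largest fall not called, -0.21 ± 0.14 (adjusted p = 0.233). That probe shares 44 bases with a probe described as an isoform of another pig protein, which changed by -0.18 ± 0.14. The gene that gives the signal of the DNAJB2 probe is therefore uncertain. DNAJB4 had the dimmest DNAJB gene value, 5.48, above background on 31 of 35 arrays. DNAJB6, DNAJB13, a protein of cilia and sperm flagella, and the ER protein DNAJB14 had 1 probe each, with changes of -0.14, -0.01 and -0.10 that did not pass.

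Of the members of DNAJC that act at the ER, DNAJC1, DNAJC3 and DNAJC14 were in the table. DNAJC3, which has TPR repeats and restrains PERK in the response to unfolded proteins, read 7.75, 7.76, 8.08, 7.71 and 7.98 in CR TN on O9613. It ranged from 7.89 to 8.30 (median 8.20) in CR HS, from 7.49 to 7.86 (7.56) in F1 TN and from 7.71 to 8.29 (8.17) in F1 HS. In LW it ranged from 7.71 to 8.10 (7.84) in TN and from 7.94 to 8.19 (8.06) in HS. Of 18 HS pigs, 18 exceeded their breed's TN mean, although the ranges overlapped in each breed. The log2 change was 0.31 ± 0.06 (adjusted p = 0.00159), a rise of 24.4%. The other DNAJC3 probes, A_72_P539958 and A_72_P071761, changed by 0.23 ± 0.08 (adjusted p = 0.0242) and by 0.14 ± 0.06 (adjusted p = 0.0832).

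DNAJC1 spans the ER membrane and binds BiP on one side and ribosomes on the other. It read 6.79, 6.54, 7.05, 6.71 and 7.12 in CR TN on O11116. It ranged from 6.69 to 7.46 (median 7.23) in CR HS, from 6.58 to 6.95 (6.72) in F1 TN and from 6.87 to 7.56 (7.10) in F1 HS. In LW the range was 6.53 to 7.06 (6.86) in TN and 6.46 to 7.23 (7.14) in HS, where the lowest HS pig lay below every TN pig. The log2 change was 0.30 ± 0.08 (adjusted p = 0.00503), with 16 of 18 HS pigs above the TN mean of their breed. The other probe rose as well, by 0.26 ± 0.07.

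DNAJC14, an ER membrane protein that helps receptors reach the cell surface, was read by 5 probes placed along 1 transcript. From the lowest position to the highest, their log2 changes were -0.06, 0.37, 0.18, -0.49 and -0.01, of which those of 0.37, 0.18 and -0.49 passed. The average over the 5 probes changed by 0.00 ± 0.04 (adjusted p = 0.998), as the rises and the fall cancelled.

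The rising lead probe of DNAJC14, A_72_P632896, read 7.54, 7.16, 7.73, 7.24 and 7.48 in CR TN. It ranged from 7.39 to 8.03 (median 7.74) in CR HS, from 6.71 to 7.64 (7.35) in F1 TN and from 7.66 to 8.05 (7.71) in F1 HS. The ranges in LW were 7.10 to 7.81 (7.47) in TN and 7.46 to 8.06 (7.66) in HS. Only the F1 groups did not overlap, with the lowest HS pig just above the highest TN pig. The change was 0.37 ± 0.09 (adjusted p = 0.00226), with 16 of 18 HS pigs above the TN mean of their breed.

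The falling probe, A_72_P454355, lay further along the transcript and read 8.76, 9.49, 8.91, 9.36 and 8.86 in CR TN. It ranged from 8.14 to 9.70 (median 8.60) in CR HS, from 9.29 to 9.82 (9.44) in F1 TN and from 8.24 to 9.03 (8.51) in F1 HS. In LW it ranged from 8.72 to 9.28 (9.11) in TN and from 8.52 to 9.41 (8.77) in HS. All F1 pigs in HS lay below all F1 pigs in TN. The change was -0.49 ± 0.12 (adjusted p = 0.00363), and 16 of 18 HS pigs were not above the TN mean of their breed. In the RefSeq gene table for the Sscrofa11.1 assembly, DNAJC14 overlaps 1 other gene, ORMDL2, whose single probe in the table changed by 0.14 ± 0.08 (adjusted p = 0.153). The strand that each DNAJ probe reads was not tested.

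**Figure D2:**
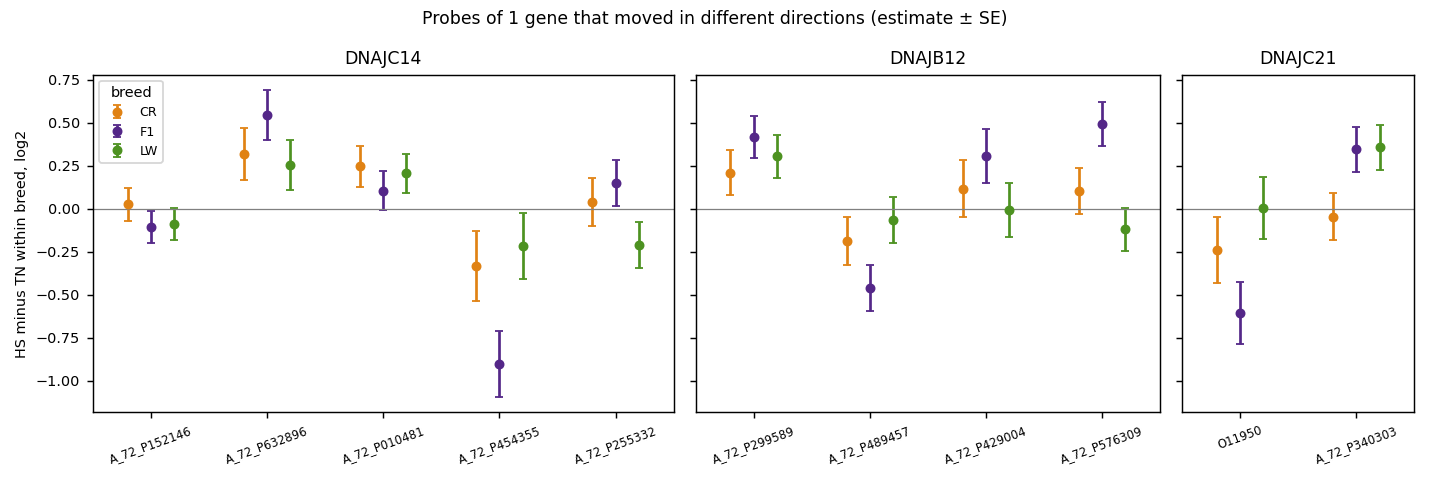
Log2 change in HS minus TN within CR, F1 and LW (y axis, limma estimate with SE as bars) for every probe of DNAJC14, DNAJB12 and DNAJC21 (x axis, in order of the start within the transcript that the files give, with O11950, which has none, first). In F1, A_72_P632896 of DNAJC14 stands at 0.54 and A_72_P454355 at -0.90.

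DNAJC7, a cytosolic protein with TPR repeats that passes clients between HSP70 and HSP90, read 8.76, 8.83, 8.78, 8.77 and 9.17 in CR TN on A_72_P179831. It ranged from 8.51 to 9.73 (median 9.23) in CR HS, from 7.73 to 8.93 (8.66) in F1 TN and from 8.94 to 9.71 (9.20) in F1 HS. The ranges were 8.45 to 9.36 (9.03) in LW TN and 8.72 to 9.75 (9.36) in LW HS. The F1 groups did not overlap, by a narrow margin, whereas CR and LW did, and 15 of 18 HS pigs were above the TN mean of their breed. The change was 0.46 ± 0.13 (adjusted p = 0.00604), a rise of 37.8%. The other probe, O8109, changed by 0.44 ± 0.13 (adjusted p = 0.0113) and did not overlap in F1 either.

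DNAJC13 is an endosomal protein that recruits HSC70 to remove clathrin and sort cargo. Its probe O7779 read 6.01, 6.02, 6.42, 6.10 and 6.40 in CR TN. The ranges were 6.09 to 6.61 (median 6.38) in CR HS, 5.96 to 6.37 (6.14) in F1 TN and 6.34 to 6.97 (6.52) in F1 HS. In LW the pigs ranged from 5.87 to 6.47 (6.30) in TN and from 6.44 to 6.73 (6.58) in HS. The groups overlapped in each breed, in F1 and LW by a narrow margin. The change was 0.31 ± 0.07 (adjusted p = 0.00171), with 17 of 18 HS pigs above the TN mean of their breed. A probe under another name with the same 60 bases changed by 0.30 ± 0.08 (adjusted p = 0.00561).

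Of the mitochondrial members, DNAJC11, which is found with the complex that shapes the inner membrane folds, rose on both its probes. O9327 read 7.43, 7.04, 7.27, 6.85 and 7.27 in CR TN. It ranged from 6.93 to 7.75 (median 7.53) in CR HS, from 6.76 to 7.54 (7.05) in F1 TN and from 7.34 to 7.51 (7.44) in F1 HS, and from 7.02 to 7.49 (7.18) in LW TN and 7.20 to 7.60 (7.42) in LW HS. HS and TN pigs overlapped in all breeds on this probe, and 16 of 18 HS pigs were above the TN mean of their breed. The change was 0.29 ± 0.07 (adjusted p = 0.00403), and that of A_72_P153691, which did not overlap in F1, was 0.25 ± 0.07.

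DNAJC15 and DNAJC19 belong to the motor that pulls proteins into mitochondria. DNAJC15 rose on O13274, by 0.25 ± 0.08 (adjusted p = 0.0158), where the F1 ranges of 7.46 to 7.72 in TN and 7.74 to 8.25 in HS did not overlap. Its other probe changed by 0.05 ± 0.08. None of 8 DNAJC19 probes passed, with changes from -0.12 to 0.08 and adjusted p from 0.244 to 0.965. The 3 overlapping DNAJC19 probes printed above changed by 0.07, 0.08 and 0.08, and A_72_P750719 had the largest fall of a DNAJC gene not called, -0.12 ± 0.08. DNAJC30, a mitochondrial J protein, rose on A_72_P275399 by 0.28 ± 0.08 (adjusted p = 0.00679), with 16 of 18 HS pigs above the TN mean of their breed, and changed by 0.01 ± 0.05 on its dimmer probe.

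In the nucleus and on ribosomes, DNAJC17, a splicing factor, rose by 0.26 ± 0.08 (adjusted p = 0.0106) on a probe with a mean log2 value of 5.93. DNAJC21, which is needed for the maturation of the large ribosomal subunit, had 2 probes with changes of opposite sign. A_72_P340303 rose by 0.23 ± 0.08 (adjusted p = 0.0299), whereas O11950 fell by 0.28 (SE 0.11, adjusted p = 0.0486). Leaving out 1 pig ended the call of O11950 in 20 of 35 fits. O11950 has 2 reading frames without a stop codon on each strand, so its letters do not settle which strand it reads, and whether it measures DNAJC21 mRNA was not tested. DNAJC4, with 0.12 ± 0.07 (adjusted p = 0.153), had the largest rise of a DNAJC gene not called. DNAJC5, a protein of secretory vesicles, DNAJC8, of the spliceosome, and DNAJC24, which takes part in diphthamide synthesis, did not pass, at 0.10, 0.10 and -0.05. The single probes of DNAJC5 and DNAJC8 also have open frames on both strands, as do many other DNAJ probes, and their strand was not tested. Some probes have 0 open frames in the direction listed and at least 1 on the other strand. They include the DNAJB12 lead probe A_72_P299589, DNAJC11 A_72_P153691, DNAJA2 O10968 and DNAJC30 O3327, and their strand was not tested either.

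**Figure D3:**
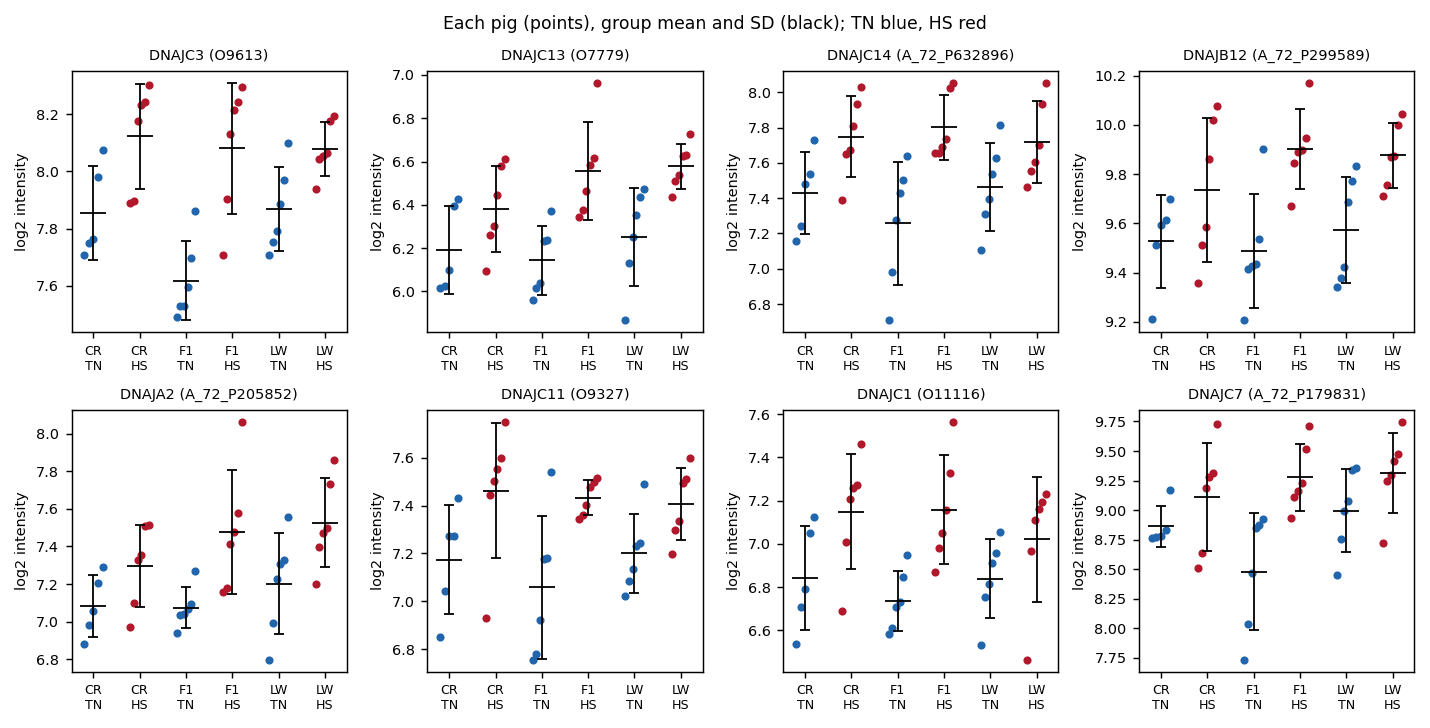
Log2 intensity (y axis) of each pig for the lead probes of the 8 DNAJ genes with the smallest p, by breed and climate (x axis). Points are pigs, black lines the group mean with SD, and the axes do not start at 0. In DNAJC7 and DNAJC14 the F1 groups do not overlap, and in DNAJC3 each HS pig exceeds its breed's TN mean.

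Not all members gave a usable signal. In the table, 53 of 61 DNAJ probes were well above background on all 35 arrays. The other 8 probes, the lowest at 15 arrays, belonged to DNAJA4, DNAJB4, DNAJC4, DNAJC8, DNAJC14, DNAJC19 and DNAJC24. Outside the table, DNAJB5 was above background on 9 arrays, DNAJC2, a ribosome-associated J protein, and DNAJC6, the neuronal auxilin, on 1 array each, and DNAJC10, an ER reductase, and both probes of DNAJC5B on 0. Which strand any of these probes outside the table read was not tested, so a low signal there says nothing firm about these genes. The brightest DNAJC gene value was that of the probe named DNAJC25-GNG10, 9.54, and the dimmest that of DNAJC8, 5.34. These are brightness values of probes and do not rank the genes by RNA. The RefSeq table lists 44 DNAJ symbols, of which 32 had a probe by name, and DNAJA1 was among the 12 without one.

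Within breeds, DNAJ probes passed the threshold in F1 pigs. In F1, 29 of 61 DNAJ probes, for 16 genes, passed an adjusted p of 0.05, with 25 up and 4 down, against 38.7% of all probes, 20.8% up and 17.9% down. In CR 0 DNAJ probes passed in limma (5 unadjusted) and in LW 0 passed (9 unadjusted), and 0% of all probes passed in either breed, while 8.87% in CR and 8.71% in LW had an unadjusted p under 0.05. With array weights 5 DNAJ probes passed in LW, of DNAJA2, DNAJB12, DNAJC13, DNAJC17 and DNAJC21, at adjusted p from 0.0400 to 0.0498 (limma). Array weights also raised the share of all probes called over the 3 breeds from 34.8% to 46.9%. That share within LW is not given here, so the 5 calls are not a result about the family. The test of the interaction of breed and climate called 0 DNAJ probes (8 unadjusted, smallest adjusted p = 0.278) and 0% of all probes, with 14.9% unadjusted. The response of DNAJ probes was therefore not shown to differ between breeds. The median log2 change of the DNAJ probes was 0.25 in F1, 0.07 in CR and 0.00 in LW, and that of all probes was 0.13, 0.03 and 0.01. The change in F1 was the largest of the 3 in 40 of 61 DNAJ probes (65.6%) and in 68% of all probes. The 3 changes had the same sign in 31 DNAJ probes (50.8%) and in 56.6% of all probes.

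In F1, HS and TN pigs did not overlap in 6 DNAJ probes: HS lay above TN in 5, of DNAJC7 with 2 probes, DNAJC11, DNAJC14 and DNAJC15, and below in 1, of DNAJC14. Over all probes, 3.59% lay above and 8.08% below. No DNAJ probe was free of overlap in CR or LW, where 0.417% and 0.683% of all probes lay above and 0.0435% and 0.0973% below.

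In DNAJB 12 of 20 probes, for 5 of 9 genes, passed in F1, which is 60% against 38.7% of all probes. Several of these probes read the same gene, so the share is not one of separate genes. The interaction called 0 of the DNAJB probes. All 4 probes of DNAJB11, an ER protein that binds unfolded clients for BiP, rose in F1 by 0.42 to 0.48 (adjusted p from 0.00402 to 0.0427), the pair of identical probes included. In CR their changes were 0.05 to 0.27 and in LW -0.21 to -0.06. DNAJB9 also rose in F1, by 0.44 ± 0.14 (adjusted p = 0.0118). The probe named DNAJB2 fell by 0.61 (SE 0.22, adjusted p = 0.0315), an effect of -0.12 in CR and 0.11 in LW. The probe that shares 44 bases with it changed by -0.59 in F1, -0.10 in CR and 0.16 in LW, so the gene that fell is uncertain. The DNAJB12 probe A_72_P576309 had the smallest interaction p of the family (interaction adjusted p = 0.278). Its changes were 0.10 in CR, 0.49 in F1 and -0.12 in LW. It has 0 open frames in the direction listed and 1 on the other strand, and its strand was not tested.

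The lead probes of the 14 genes were chosen in a fit of these same pigs, so their changes within breeds are a description. In F1 the change of DNAJC7 was 0.80 ± 0.21 and that of DNAJA3 was 0.60 ± 0.14. DNAJC17 did not pass in F1, at 0.32 ± 0.13 (adjusted p = 0.0546), and its LW change was 0.34 ± 0.13 (adjusted p = 0.563). The changes of DNAJC21 in CR (-0.05) and of DNAJA3 in LW (-0.02) were below 0. The part in these changes of the lower array intensity in F1 TN was not tested. With the erythroid mean, which was lower in F1 HS than in F1 TN, as a covariate, 2 DNAJ probes passed in F1. These were DNAJC3 O9613 at 0.54 and DNAJB11 A_72_P372653 at 0.53. The share of all probes that passed within F1 in that fit is not given here, so this count is not a result about the family.

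**Figure D4:**
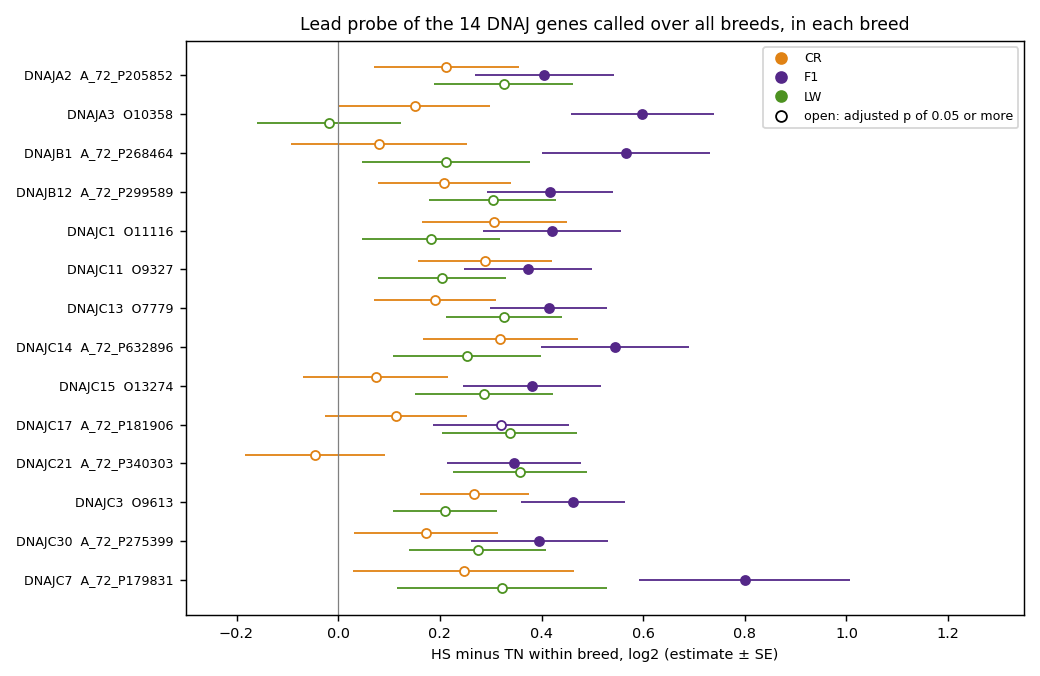
Log2 change in HS minus TN within each breed (x axis, limma estimate from the model of 6 groups with SE as bars) for the lead probes of the 14 DNAJ genes called over the 3 breeds (y axis). Filled points passed an adjusted p of 0.05, which 13 did in F1 and 0 in CR and LW.

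Limma called 0 of 61 in CR minus LW (3 unadjusted), where 1.08% of all probes passed and 10.1% did so unadjusted. The count was 0 in F1 minus CR (3 unadjusted, against 0.184% of all probes adjusted and 4.95% unadjusted) and 0 in F1 minus LW (1 unadjusted, against 0.0256% and 4.48%). It was 0 for F1 against the mean of CR and LW (3 unadjusted, against 0.0717% and 2.99%). The smallest adjusted p was that of the probe named DNAJC25-GNG10, after a read-through of a J protein gene into that of a G protein subunit. The read-through is not in the RefSeq table, and whether the probe reads a J protein transcript or that of the G protein subunit alone was not tested. Its probe ranged from 9.16 to 10.54 in CR TN and from 9.71 to 10.65 in CR HS, against 8.87 to 10.27 in LW TN and 8.76 to 9.61 in LW HS. Only the HS pigs of the breeds did not overlap. The difference of CR minus LW was 0.57 ± 0.16 (adjusted p = 0.0759). It passed with array weights (adjusted p = 0.0178), without CR TN replicate 3 (adjusted p = 0.0278) and without LW TN replicate 3 (adjusted p = 0.0182). A probe for an unnamed locus that shares 33 bases with it differed by 0.58 ± 0.17 (adjusted p = 0.112). The difference of DNAJC30 between CR and LW was -0.28 ± 0.10 (adjusted p = 0.199).

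The HSP70 proteins with which J proteins work were read by 16 probes for 9 of 16 listed genes, and 2 probes rose and 0 fell. These were HYOU1 at 0.30 ± 0.07 (adjusted p = 0.00328) and 1 of 3 probes of HSPA5, which encodes BiP, at 0.31 ± 0.08 (adjusted p = 0.00349), both of the ER. Both probes of the constitutive cytosolic HSPA8 had changes of -0.01 and 0.08, and that of the mitochondrial HSPA9 was -0.03. HSPA1A and HSPA1B, the stress-inducible HSP70 genes, were not in the table. The median change of this list was 0.07, and 12.5% of its probes were called, against 34.8% of all probes.

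Factors that exchange the nucleotide of HSP70 or release its clients were read by 13 probes for 7 genes, of which 5 rose and 2 fell. The share called was 53.8%, against 34.8% of all probes. STUB1, a ubiquitin ligase, rose by 0.32 ± 0.08, HSPBP1 by 0.30 ± 0.07 and the ER exchange factor SIL1 by 0.20 ± 0.08, and both GRPEL2 probes, of the mitochondrial motor, rose. BAG4 fell by 0.69 (SE 0.16) and 1 of the BAG3 probes fell by 0.45 (SE 0.10). The other BAG3 probes changed by 0.00 to 0.12 and did not pass. Among J proteins under other symbols, GAK, the auxilin found in most tissues, fell by 0.42 (SE 0.11, adjusted p = 0.00407), whereas HSCB at 0.19 and SEC63 at 0.00 did not pass. The partners of J proteins in organelles had 59 probes for 13 genes, with 9 up and 13 down. Their share called, 37.3%, lay near the 34.8% of all probes, so this count is not a result about the list. Of the 13 that fell, 12 were probes of SEC62, a part of the ER translocon, which had 13 probes in all. The rises included the clathrin chain CLTA, the mitochondrial chaperonin HSPD1 (3 of 21 probes), SEC61A1 and TIMM44.

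Within each of the 4 array slides that gave a value, the breed-adjusted change of DNAJC3 O9613 ranged from 0.25 to 0.45 and that of DNAJC7 A_72_P179831 from 0.30 to 0.65. It ranged from -0.67 to 0.06 for DNAJC14 A_72_P454355, from -0.01 to 0.43 for DNAJC15 O13274 and from -0.19 to 0.44 for DNAJC21 A_72_P340303. These probes were called on the same arrays, so the values are a description.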

How the data were processed

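The authors read the arrays with Agilent Feature Extraction 10.10.1.1 per the labels. The deposited scanner files hold spot intensity, not normalized between arrays. The deposited table holds log2 values that the authors made from median intensity by quantile normalization and a filter whose rule is not given in the sources used here. Recomputed values correlated with the table at 0.99987 or more per array, and no column was of an unknown sample.

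Members followed the name rule. Members and gene lists were chosen with earlier results of these data known. Limma 3.58.1 in R 4.3.3 was fitted to all 35 pigs: breed plus climate, or 6 group means for effects within breeds and the interaction, with two-sided p adjusted by Benjamini-Hochberg over 39072 probes. For genes, probes of 1 symbol were averaged (8760 genes). Random effects of the study (pen, day, sire, dam) carry no labels and were left out. Named were all genes with a called probe, by the probe of smallest p, and per subfamily the largest rise and fall not called and the brightest and dimmest gene. Scripts were tested on simulated data. Alternatives were recomputed values with and without a filter (well above background on a share of 0.5 of the arrays of a group), scaling to the 75th percentile, normexp (offset 50), slide as block, array weights, an erythroid covariate, and leaving out breeds or pigs. The number of arrays limits the precision.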

Additional observations from a re-analysis of the deposited data

Results flagged for a closer look

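Single pigs stood apart from the rest of their group in 7 of 132 groups of named probes (5.30%), by a gap to the nearest pig that exceeded Dixon's critical share of the group's range. By its construction this limit marks about 1 in 20 groups of normal values. In the lead probes they were a low F1 HS pig for DNAJA3 (9.60, the others from 10.14 to 10.43), a low LW HS pig for DNAJC1 (6.46, the others from 6.97 to 7.23) and a high CR TN pig for DNAJC7 (9.17, the others from 8.76 to 8.83). The LW HS pig that was low for DNAJC1 was high for DNAJC21 on O11950 (9.18, the others from 8.65 to 8.77). Among genes not called, they were a high LW TN pig for DNAJA4 (5.72, the others from 4.98 to 5.17), a high F1 TN pig for DNAJB2 (12.97, the others from 11.75 to 12.18) and a high LW HS pig for DNAJC19 (7.82, the others from 7.41 to 7.55).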

How the results depend on the processing

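The number of DNAJ probes called in HS minus TN, 24, was 19 to 28 with single pigs left out and 20 to 26 with other values, filters, scaling, slide block or array weights, or without CR or LW pigs. For genes, 10 became 8 to 13 with single pigs left out. With the erythroid mean as covariate, the counts were 0 probes, 0 genes and 2 probes within F1, and without F1 pigs 0 probes and 0 genes. Within F1, 29 became 21 to 31 with single pigs left out. With array weights, 5 probes passed within LW (DNAJA2, DNAJB12, DNAJC13, DNAJC17 and DNAJC21) and 1 in CR minus LW, DNAJC25-GNG10 (adjusted p = 0.0178). For these counts within F1, within LW and in CR minus LW, the share of all probes is not given here. They are therefore not results about the family. CR minus LW had 0 to 1 calls with single pigs left out, the 1 being DNAJC25-GNG10 without CR TN replicate 3 or LW TN replicate 3. The other comparisons stayed at 0 calls under every alternative that gave a value. DNAJB2 reversed to 0.16 with the erythroid covariate and to 0.000583 without F1 pigs. Of the called probes, DNAJA3 O10358 lost its call without any of 10 pigs, DNAJC21 O11950 without any of 20 and A_72_P340303 without 1. DNAJB9, not called, passed without any of 10. The cause of these moves was not tested. No paired analysis was possible because TN and HS pigs were separate animals and the labels do not give the litter. The replicate numbers used here only follow the order of the records. The number of pigs and, for the 8 probes not above background on all arrays, the signal limit what can be seen.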
